A study of Mus musculus with 12 samples.

Results

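The LPS response of each gene was compared between wild-type macrophages and macrophages lacking Nfkbiz, as the response in Nfkbiz-/- cells minus the response in wild-type cells. All 12 arrays of the series enter this difference, 3 in each of 4 groups, and it was taken for 19938 genes, each read from 1 probe set. The groups were peritoneal macrophages of C57Bl/6 and of Nfkbiz-/- mice, either untreated or given LPS at 1 µg/ml for 4 h. All mice were female, and their age and the number pooled per array are not given in the labels. The cells were washed from the peritoneal cavity and plated briefly with no sort, so they are an adherent-enriched wash and not a purified type.

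Nfkbiz encodes IκBζ, an inducible nuclear member of the IκB family that binds NF-κB dimers at promoters and is needed for the full induction of a subset of secondary LPS response genes. LPS is the bacterial cell-wall lipid sensed by TLR4, and macrophages answer it within hours with cytokines, chemokines, interferon-induced genes and the repression of many resting-state genes. A difference of 2 responses can arise in several ways, which look alike in the statistic: a response can be lost, weakened, turned round, enlarged or newly acquired, and the levels can be apart before LPS, after it, or both.

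Levels are intensities on a linear scale, and responses and differences are log2, positive where the value was higher with LPS or in the knockout. A gene was called when limma's two-sided test gave a Benjamini-Hochberg adjusted p under 0.05 over all genes. Whether the 3 replicates of a group are separate mice is not said in the labels. The p-values measure only how much these arrays varied, and that variation may be technical.

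The 14 measured markers of peritoneal macrophage identity, with Adgre1, Csf1r, Cd68 and Itgam among them, had a mean log2 level of 10.19 to 10.98 on the 12 arrays. Levels of different probe sets cannot be ranked against each other, so the lists of other cells are given by their range only: 5.84 to 6.12 for T and NK cells, 6.06 to 6.31 for neutrophils and eosinophils, 6.54 to 6.97 for mesothelium and fibroblasts, 6.99 to 7.86 for B cells, 6.77 to 8.31 for mast cells, 7.69 to 8.78 for monocytes and 8.11 to 8.97 for platelets and red cells. Of the 66 markers measured in these other lists, 0 were called for a difference of responses in limma. An unadjusted p under 0.05 was found for 2 of them (13.1% of all genes had one). Some lists moved with single arrays: the mast cell list read 7.22, 6.77 and 7.82 on the untreated knockout arrays and 7.81, 6.85 and 8.31 with LPS. The part of such markers in the results was not tested. In bulk RNA, fewer cells of a type and less RNA per cell cannot be told apart. The 25 antiviral interferon-stimulated genes set 2 arrays apart, with mean log2 levels of 11.13, 11.97 and 9.65 in LPS-treated wild type and 9.0, 8.75 and 10.37 in untreated knockout, so wild-type LPS replicate 3 was low and knockout untreated replicate 3 high. Counts are therefore also given without these 2 arrays, an alternative chosen after seeing the data.

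The targeted gene checks the labels. Nfkbiz read 463, 431 and 406 in untreated wild type, 3371, 3786 and 3080 with LPS, 267, 286 and 274 in untreated knockout, and 1568, 1335 and 1634 in knockout with LPS. Every knockout array was below every wild-type array of the same treatment, and LPS raised the signal in both genotypes. The position of its probe set on the disrupted gene is not known here, so the signal left in the knockout cannot be read as intact transcript. The response was 2.97 in wild type and 2.45 in knockout, a difference of -0.52 that was not called (SE 0.14, limma adjusted p = 0.123).

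Across the genome the responses differed at 149 genes, 0.747% of those tested, while for 13996 genes (70.2%) the 95% interval of the difference lay inside 1.5-fold. Of these, 2632 (13.2% of all genes) also had a called response in both genotypes, and these are named equal within 1.5-fold. Among the 149, 60 had a higher (more positive) response in the knockout (0.301%) and 89 a lower one (0.446%). Centring each array on its 75th percentile turned this split, with 123 higher and 85 lower, so the share of lower calls went from 59.7% to 40.9%. The sizes ran from 0.54 to 4.78 with a median of 1.01, and 76 of the 149 were at least 2-fold. By the form of the difference, 23 responses were lost in the knockout, 20 were weakened, 24 changed direction, 34 were enlarged and 48 were gained, meaning called in the knockout and not in wild type. A response counted as lost when it was called in wild type, not called in the knockout, and there of opposite sign or below 0.5 of the wild-type size. Weakened responses were called in both genotypes, so their split from lost ones depends on the knockout call and not only on the size left. Of the 149 calls, 50 were kept in each of the 12 fits that left out 1 array and 78 were lost in at least 6 of them. Without wild-type LPS replicate 3 and knockout untreated replicate 3, 42 of the 149 were still called.

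**Figure D1:**
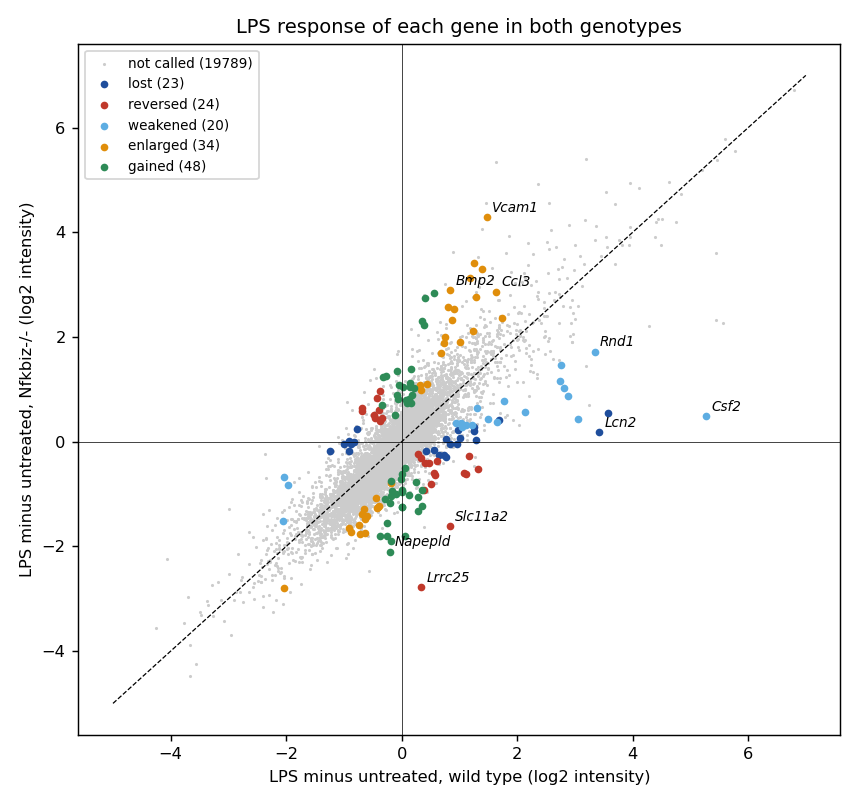
Log2 LPS response of each gene in wild type (horizontal) and Nfkbiz-/- cells (vertical), 1 point per gene of the 19938 tested, with the 149 called genes coloured by form. Genes on the dashed diagonal have equal responses. Lost responses lie near the horizontal axis, and weakened ones lie between that axis and the diagonal. Gained responses lie near the vertical axis, reversed ones in the upper left and lower right quadrants, and enlarged ones beyond the diagonal.

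The difference lay under LPS far more often than at rest. With the untreated and the LPS-treated genotype difference set side by side, the gap was at least 2 times as large under LPS for 135 of the 149 genes, at rest for 2 (Ccl3 and Cxcl2), and of like size in opposite directions for 12. No called gene had gaps of like size in the same direction. Such gaps largely cancel in the difference of responses, so choosing genes by that difference nearly excludes them beforehand. In the intensities, the knockout and wild-type arrays did not overlap under LPS for all 149 genes (24.5% of all genes tested) and did not overlap untreated for 49 of them (16.3% of all genes). These contrasts come from the same arrays, so the counts say where the gap lies and add no support to the calls.

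**Figure D2:**
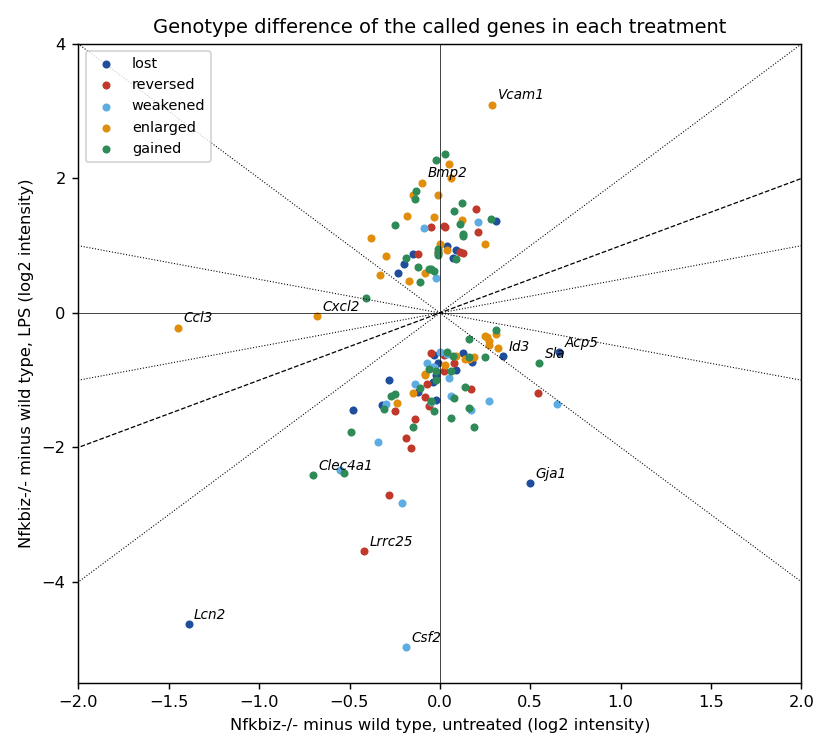
Log2 difference Nfkbiz-/- minus wild type in untreated cells (horizontal) and with LPS (vertical) for the 149 genes called for a difference of responses. Points on the dashed line would have the same gap in both treatments, and the dotted lines mark gaps that differ by 2 times. Most points lie along the vertical axis, and Ccl3 and Cxcl2 lie near the horizontal one.

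Weakened responses held the largest difference of all genes tested. Csf2, the gene of GM-CSF, read 36.2, 34.7 and 37.1 in untreated wild type, 1390, 1269 and 1531 with LPS, 30.7, 32.6 and 31.2 in untreated knockout, and 38.5, 43.3 and 52.2 in knockout with LPS. The untreated groups lay close together without overlap, and with LPS each wild-type array was far above each knockout array. The response was 5.27 in wild type and 0.49 in knockout, still called there, and the difference was -4.78 (SE 0.15, limma adjusted p = 2.62e-08). The untreated and knockout intensities of Csf2 lay below the array medians of 110.4 to 118.7, and with an offset of 50 added before the log the difference was -3.85. Tpbg, which encodes a membrane glycoprotein of the leucine-rich repeat kind, read 107, 99.9 and 101, rising to 859, 990 and 725 in wild type, and 90.4, 85.9 and 89.0, rising to 129, 96.7 and 138 in knockout. Its untreated groups were just apart and its LPS groups far apart, with responses of 3.05 and 0.44 (difference -2.61, SE 0.19, limma adjusted p = 1.09e-04). Rnd1 read 146, 146 and 138 untreated and 1468, 1399 and 1488 with LPS in wild type, against 165, 141 and 182 untreated and 608, 489 and 507 with LPS in knockout. Part of the Rnd1 rise was kept in the knockout, as the responses of 3.34 and 1.72 show (difference -1.62, SE 0.15, limma adjusted p = 7.11e-04).

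Il12b, which encodes the subunit shared by IL-12 and IL-23, went from 89.9, 71.2 and 60.3 to 434, 598 and 464 in wild type and from 79.3, 70.6 and 78.3 to 223, 206 and 203 in knockout. The difference of its responses was -1.29 (SE 0.21, limma adjusted p = 0.0168), and the call was lost without wild-type untreated replicate 2 (-1.27) or knockout untreated replicate 1 (-1.26). Edn1, the gene of the vasoconstrictor endothelin, had a difference of -1.58, the cadherin gene Cdh6 of -1.79, Tmc3 of -2.0 and Rhou of -1.58. Leaving out 1 array ended these calls in 10, 9, 8 and 5 of the 12 fits. Weakening was also seen in genes that LPS lowered, in 3 of the 20: Dapp1, a phosphoinositide-binding adaptor gene, fell by 2.03 in wild type and by 0.68 in knockout (difference 1.35, limma adjusted p = 0.0377, lost in 8 fits). Galnt7 (1.15) and the chromatin remodelling gene Smarca2 (0.54) were the other two. The median size of a weakened response was 2.0 in wild type and 0.61 in knockout. Of the 20, the calls of 5 were kept in all 12 fits, for Csf2, Tpbg, Rnd1, Mtf2 (-1.28) and Zfp719 (-0.91), the last pair named after their values were seen, as were Galnt7 and Smarca2.

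Lost responses were led by Lcn2, which encodes an antimicrobial protein that binds bacterial siderophores. Lcn2 read 206, 266 and 109 in untreated wild type and 1802, 2151 and 1902 with LPS, and 68.2, 72.9 and 66.9 in untreated knockout and 67.5, 96.3 and 74.7 with LPS. The knockout arrays were below the wild-type arrays in both treatments, and in the knockout the untreated and LPS groups overlapped. The responses were 3.42 and 0.18, with a difference of -3.24 (SE 0.36, limma adjusted p = 0.00262). The untreated genotype difference of -1.39 was not called (limma adjusted p = 0.0928). Gja1, a connexin gene of gap junctions, went from 82.2, 86.1 and 78.4 to 1011, 751 and 1239 in wild type, and from 150, 51.5 and 202 to 178, 113 and 241 in knockout. Knockout replicate 2 was the lowest of its group in both treatments, and the call (-3.03, SE 0.60, limma adjusted p = 0.0467) was lost in 9 of the 12 fits, with values from -3.61 to -2.63.

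Dtx2, which encodes a ubiquitin ligase of the Deltex family, read 767, 677 and 630 untreated and 1557, 1752 and 1619 with LPS in wild type, and 548, 566 and 540 untreated and 636, 565 and 714 with LPS in knockout. Its response of 1.25 in wild type stood against 0.20 in knockout (difference -1.05, SE 0.14, limma adjusted p = 0.00618). Acp5, the gene of tartrate-resistant acid phosphatase, had the gap on both sides: 0.66 above wild type untreated and -0.58 with LPS, a difference of responses of -1.24 (lost in 7 fits). Irak3, which encodes the signalling inhibitor IRAK-M, read 3942, 3670 and 3476 untreated and 6080, 5924 and 6747 with LPS in wild type, and 2927, 3148 and 3020 untreated and 3596, 2811 and 3040 with LPS in knockout. LPS left no separation between the knockout groups, and the difference of -0.71 (SE 0.14, limma adjusted p = 0.0403) lost its call in 10 of the 12 fits. The mitochondrial folate enzyme gene Aldh1l2 (-1.27, lost in 8 fits) and Trpm4, a calcium-activated cation channel gene (-1.05, lost in 9), were counted here too, with uncalled knockout responses of 0.42 and -0.29.

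In 7 of the 23 lost responses the wild-type change was a fall. Mitf, a transcription factor gene of lysosomal and osteoclast programmes, fell from 2543, 2527 and 2641 to 1609, 1546 and 1379 in wild type and read 2062, 2641 and 2302 untreated and 2656, 3248 and 2425 with LPS in knockout. The difference was 1.02 (SE 0.17, limma adjusted p = 0.0189), lost in 4 fits, and a second Mitf probe set gave 0.54 (limma adjusted p = 0.431). Isoc1 was of the same kind (1.07, lost in 11 fits). A missed call does not show that a response is absent, so the interval was used: for 19 of the 23 genes, the 95% interval of the knockout response lay inside 1.5-fold in either direction. The other 4 were Lcn2 (-0.37 to 0.74), Gja1 (-0.38 to 1.47), Aldh1l2 (0.05 to 0.78) and Trpm4 (-0.59 to 0.02), so for these a response of that size in the knockout was not excluded, and the interval of Aldh1l2 left out 0. The same interval lay inside 1.5-fold for 5 of the 20 weakened responses. Size left did not always part these classes: Csf2 counted as weakened with a called knockout response of 0.49. Aldh1l2 (0.42) and Gja1 (0.55) counted as lost because theirs were not called. The call was kept in all 12 fits for 4 of the 23, Lcn2, Dtx2, the activin receptor gene Acvr1b (-0.99) and Gramd1a (-0.94), the last pair named after their values were seen.

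**Figure D3:**
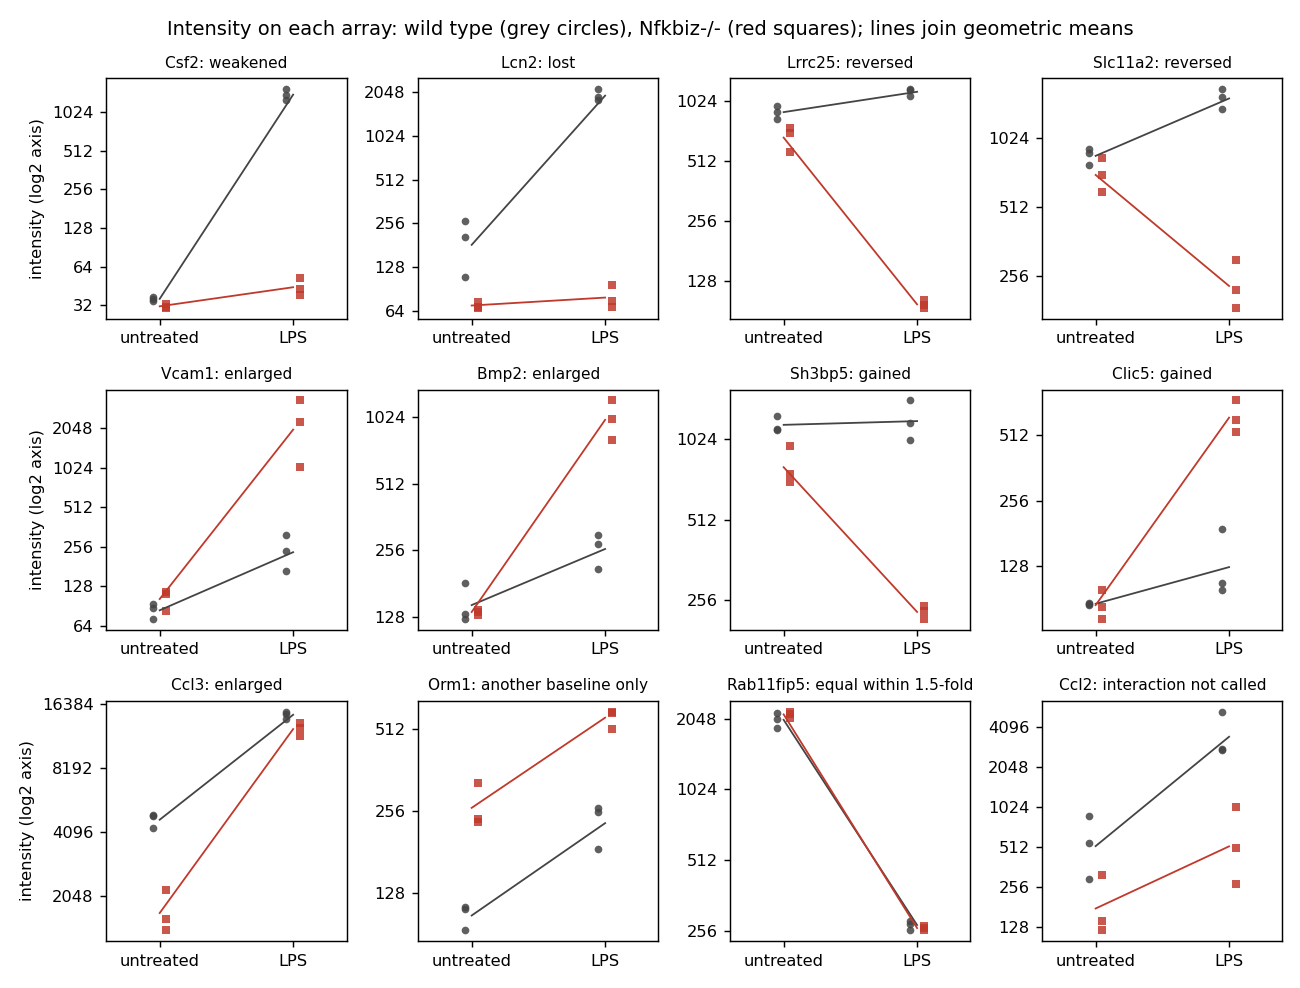
Intensity (log2 axis) of 12 genes on each array, untreated and with LPS, for wild type (grey circles) and Nfkbiz-/- (red squares), 3 arrays a group, with lines joining geometric means. The panels show each form of difference, an offset that is the same in both treatments (Orm1), equal responses (Rab11fip5) and Ccl2, whose difference of responses was not called.

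Reversed responses were called in both genotypes in opposite directions: in 15 genes LPS raised the wild-type level and lowered the knockout level, and in 9 it did the opposite. Lrrc25, which encodes a leucine-rich repeat membrane protein of myeloid cells, read 969, 836 and 904 untreated and 1090, 1160 and 1173 with LPS in wild type, and 710, 570 and 750 untreated and 103, 94.2 and 97.0 with LPS in knockout. The rise in wild type was small and the fall in knockout large, and the groups did not overlap in either treatment. Its responses were 0.34 and -2.78, and the difference of -3.12 had the second lowest adjusted p of all genes (SE 0.14, limma adjusted p = 9.61e-07). Slc11a2, the gene of a ferrous iron transporter, read 915, 876 and 779 untreated and 1542, 1369 and 1667 with LPS in wild type, and 708, 839 and 593 untreated and 222, 301 and 186 with LPS in knockout. The untreated groups overlapped, and with LPS the groups were far apart in opposite directions from where they began. The responses were 0.83 and -1.61 (difference -2.44, SE 0.24, limma adjusted p = 0.00131).

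P4ha2, which encodes a collagen prolyl hydroxylase, rose by 1.33 in wild type and fell by 0.52 in knockout (difference -1.85, limma adjusted p = 0.00139). Mylip, the gene of a ubiquitin ligase that degrades the LDL receptor, rose by 1.11 and fell by 0.62 (difference -1.73, limma adjusted p = 0.00463). Micall2 (-1.67, lost in 7 fits) and E2f5, a cell-cycle transcription factor gene (-1.44, limma adjusted p = 0.00139), ran the same way. In the other direction Mertk, the receptor through which macrophages take up apoptotic cells, read 2786, 2792 and 3038 untreated and 1511, 2088 and 1780 with LPS in wild type, and 2752, 2791 and 3185 untreated and 4046, 4704 and 4302 with LPS in knockout. Untreated levels overlapped, and with LPS all knockout arrays were above all wild-type arrays. The responses were -0.69 and 0.58 (difference 1.27, SE 0.16, limma adjusted p = 0.00530). P2ry14, a receptor gene for UDP-sugars (1.34), and the transcription factor gene Klf4 (1.33, lost in 8 fits) also fell in wild type and rose in knockout.

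Most reversals were small on at least 1 side. The smaller of both responses was under 0.5 in size in 16 of the 24, and both were at least 1.5-fold in 4: Slc11a2, Mylip, Micall2 and Klf4. The form therefore depended on the zero of the scale. Centring each array on its 75th percentile raised the median response of all genes from 0.04 to 0.23 in wild type and from 0.07 to 0.35 in knockout; 23 of the 24 genes kept their call under it, but 9 were still called in both genotypes in opposite directions, and the knockout response of E2f5 went from -0.28 to -0.00. After quantile normalization 12 of the 24 were. The call was kept in all 12 fits without 1 array for 10, among them Lrrc25, Slc11a2, P4ha2, Mylip, E2f5, P2ry14 and Mertk.

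Enlarged responses comprised 19 genes with a larger rise and 15 with a larger fall. Vcam1, which encodes an adhesion molecule for leukocytes, had the largest difference. It read 87.6, 72.2 and 93.5 untreated and 239, 315 and 167 with LPS in wild type, and 116, 83.4 and 111 untreated and 2303, 1039 and 3332 with LPS in knockout. The untreated groups overlapped, and the lowest LPS-treated knockout array was well above the highest wild-type one. The difference of 2.82 (SE 0.50, limma adjusted p = 0.0303) ranged from 2.45 to 3.29 without 1 array and lost its call in 9 of the 12 fits. Bmp2, a growth factor gene of the TGF-β superfamily, read 182, 125 and 132 untreated and 274, 301 and 211 with LPS in wild type, and 135, 137 and 131 untreated and 804, 1220 and 1010 with LPS in knockout. Its groups parted only with LPS, at responses of 0.84 and 2.89 (difference 2.05, SE 0.25, limma adjusted p = 0.00501).

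Intu, a gene of cilium formation (1.95, limma adjusted p = 0.0102), and the retinol dehydrogenase gene Rdh12 (1.77, limma adjusted p = 0.0127) kept their calls in all 12 fits. The calls of Calcr, the calcitonin receptor gene (1.90), Rnf225 (2.16), the nucleotidase gene Nt5c1a (1.63) and Csrnp1 (1.49) were lost in 3, 9, 5 and 10 fits. Among larger falls, named after their values were seen, the G-CSF receptor gene Csf3r had responses of -0.88 in wild type and -1.72 in knockout, and the haem-regulated repressor gene Bach1 of -0.41 and -1.24. The enlarged class was the one whose count moved most with scaling, to 69 after centring on the 75th percentile. The median size was 0.74 in wild type and 1.76 in knockout.

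For Ccl3 and Cxcl2, counted as enlarged, the gap lay at rest. Ccl3, which encodes the chemokine MIP-1α, read 4282, 4918 and 4862 in untreated wild type and 2183, 1422 and 1606 in untreated knockout, and 14686, 15039 and 13906 against 11510, 13354 and 12568 with LPS. The gap was wide at rest and narrow with LPS, though no knockout array reached a wild-type array in either treatment. The genotype difference was -1.45 untreated (limma adjusted p = 0.00121) and -0.22 with LPS (limma adjusted p = 0.386), and the difference of responses 1.23 (SE 0.19, limma adjusted p = 0.0136). Cxcl2, a neutrophil-attracting chemokine gene, read 3280, 3080 and 3497 against 2033, 2017 and 2081 untreated, and 11031, 11129 and 10708 against 10640, 10625 and 10430 with LPS. Its difference went from -0.68 to -0.05, and that of the responses was 0.63 (SE 0.09, limma adjusted p = 0.00932). With LPS both genes lay in the upper part of the intensity range of 6.96 to 22642, whose part in the result was not tested.

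Gained responses comprised 22 higher and 26 lower ones. Clic5, which encodes an intracellular chloride channel protein, read 85.2, 87.5 and 86.5 untreated and 108, 190 and 100 with LPS in wild type, and 83.8, 73.7 and 100 untreated and 526, 736 and 598 with LPS in knockout. All knockout arrays with LPS were above all others. The response of 2.85 in knockout stood against 0.56 in wild type, not called (difference 2.29, SE 0.30, limma adjusted p = 0.00618). Sh3bp5, the gene of a JNK-binding adaptor protein, read 1122, 1116 and 1253 untreated and 1185, 1017 and 1434 with LPS in wild type, and 762, 712 and 967 untreated and 218, 244 and 233 with LPS in knockout. Wild-type levels stayed where they were while knockout levels dropped below every other array. The responses were 0.05 and -1.80 (difference -1.85, SE 0.19, limma adjusted p = 0.00139).

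Other genes with a called fall in the knockout and no called change in wild type were Napepld, an N-acylethanolamine synthesis gene (-1.89), the C-type lectin receptor gene Clec4a1 (-1.71), the ubiquitin ligase adaptor gene Kbtbd7 (-1.62) and Cyria, whose product binds Rac (-1.58), all with limma adjusted p of 0.00697 or less. The transcription factor gene Klf8 (1.95, limma adjusted p = 0.00393) and Ccne1, the cyclin E gene (1.84, limma adjusted p = 0.0269), rose, Ccne1 with its call lost in 8 fits. Named after their values were seen, Ahr (-1.28) and Batf (-0.96), transcription factor genes, had lower responses, and Tapbpl (1.22) and Rfx5 (1.13), which act in antigen presentation, had higher ones. Batf lost its call in 11 fits and Ahr in 7. For 37 of the 48, the 95% interval of the wild-type response lay inside 1.5-fold. Clic5 (0.09 to 1.02), Ccne1, Klf8, Kbtbd7, Cyria and Ahr were among the 11 for which it did not. The median size was 0.17 in wild type and 1.04 in knockout, and 20 of the 48 calls were kept in all 12 fits.

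Responses that only start from another baseline were defined as a genotype difference called when averaged over both treatments (5.4% of all genes), an averaged response that was called (53.0%), and a difference of responses whose 95% interval lay inside 1.5-fold. This held for 207 genes (1.04% of those tested), 127 lower and 80 higher in the knockout, with a median genotype difference of 0.30 in size. LPS raised 76 of them and lowered 131. The interval allows a difference of responses up to 0.585, which is above that median of 0.30. An equal gap in both treatments was therefore not shown for each gene. Of the 207, only Orm1 and Lrrk2 were also called between untreated genotypes. Orm1, the gene of an acute-phase plasma protein, was the one at least 2-fold apart. It read 111, 113 and 93.5 untreated and 262, 253 and 185 with LPS in wild type, and 239, 233 and 324 untreated and 585, 513 and 591 with LPS in knockout. The knockout arrays were above wild type by a like factor in both treatments, and the responses were 1.12 and 1.1 (difference -0.03, 95% interval -0.51 to 0.45). Lrrk2, a kinase gene, was higher by 0.87 untreated and 0.93 with LPS, with responses of 1.26 and 1.32. Gadd45b, a stress response gene, was lower by a like amount in both treatments (-0.69 and -0.73) while LPS raised it by 2.16 and 2.12. Tbc1d23 (0.94), Abhd3 (0.77), Cryzl2 (0.71), C1rl (0.70) and Adgrf1 (0.67) were higher on average, with differences of responses between -0.08 and 0.06.

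Of the 15 genes called between untreated genotypes (0.0752%), 2 were the chemokine genes above and 2 more, Orm1 and Lrrk2, had an interval of the difference inside 1.5-fold. The other 11 were neither, and several stood at the same offset with LPS within a wide interval. Me1, an NADPH-producing enzyme gene, was 1.70 higher untreated and 1.55 with LPS (difference of responses -0.15, 95% interval -0.60 to 0.30), and the mannose receptor gene Mrc1 was -1.67 and -1.77 (-0.10, interval -0.79 to 0.58). The chemokine gene Ppbp was at -2.49 and -2.07 (0.42, interval -0.21 to 1.04). For Cxcl3 and Cxcl5 the intervals left out 0 without passing the adjusted threshold: 0.99 (interval 0.37 to 1.60, limma adjusted p = 0.151) and -0.90 (interval -1.55 to -0.25, limma adjusted p = 0.206). These genes were chosen after their values were seen.

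Many responses were equal within 1.5-fold between the genotypes. Of 4795 genes called in both genotypes, 2632 (54.9%) were equal within 1.5-fold, 78 were called different, and 2085 (43.5%) were neither, since their intervals were too wide to tell. The count of responses equal within 1.5-fold was 7516 after centring on the 75th percentile and 4206 with array weights. Strongly responding genes were less well resolved: of 1458 with an averaged response of at least 2-fold, 286 (19.6%) were equal, 50 called and 1122 neither. The half-width of the 95% interval had a median of 0.31 over all genes, and 0.54 at its 90th percentile. Rab11fip5, which encodes a Rab-binding trafficking protein, fell from 2172, 2043 and 1863 to 281, 274 and 258 in wild type and from 2141, 2068 and 2191 to 262, 269 and 258 in knockout. The groups overlapped in both treatments, and the difference of -0.12 had an interval of -0.34 to 0.10. Nlrp3, the inflammasome sensor gene, went from 1139, 906 and 1025 to 6869, 7076 and 6474 in wild type and from 846, 757 and 812 to 5568, 5012 and 5794 in knockout. Its responses were 2.74 and 2.76, although every knockout array was below every wild-type array (difference 0.02, interval -0.27 to 0.31). Tnfaip3, which encodes the deubiquitinase A20, rose by 2.80 and 2.59 (interval -0.53 to 0.11). The inhibitory receptor gene Cd200r1 (-3.27 and -3.32), Cd300lb (-3.67 and -3.88), Eepd1 (-2.80 and -2.87), the Ras regulator gene Rasa3 (-2.56 and -2.70) and the IL-6 receptor gene Il6ra (-2.46 and -2.55) fell alike within 1.5-fold.

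A response called in 1 genotype alone was no measure of a difference. Wild type alone had 799 such genes, of which 23 were called for a difference, 377 had an interval inside 1.5-fold and 399 were neither. Knockout alone had 4310, of which 48 were called, 2652 were inside and 1610 were neither. In all, 28.1% of genes were called for the wild-type and 45.7% for the knockout response, and these contrasts share their arrays with the difference.

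Of the genes known from earlier work to need IκBζ, 4 of 10 measured had a lower response in the knockout, against 0.446% of all genes, and 0 a higher one. These were Csf2, Lcn2, Edn1 and Il12b. The 6 not called were Il6, Csf3, Ccl2, Cebpd, Il17c and Camp. Il6 had a difference of -0.07 with a wide 95% interval of -1.11 to 0.97. The list's median difference was -1.24, beside 0.02 for all genes. The list was chosen with earlier results of these data known, and it holds Ccl2, the gene of the series title. Its share of called genes is therefore not independent support. Csf3, the gene of G-CSF, read 149, 128 and 126 untreated and 6222, 7082 and 5704 with LPS in wild type, and 107, 101 and 102 untreated and 607, 133 and 1525 with LPS in knockout. The LPS groups lay far apart, but the knockout arrays with LPS spread widely, and the difference of -3.30 was not called (SE 0.87, limma adjusted p = 0.122). Ccl2, the chemokine gene named in the series title, read 869, 291 and 544 untreated and 2734, 5304 and 2789 with LPS in wild type, and 121, 142 and 314 untreated and 266, 500 and 1022 with LPS in knockout. With LPS all knockout arrays were below all wild-type arrays, and untreated levels overlapped by 1 array. The responses were 2.73 and 1.55, and their difference of -1.18 was not called (SE 0.75, limma adjusted p = 0.552, 95% interval -2.82 to 0.46). The data therefore did not separate a smaller Ccl2 response from a lower starting level, with an untreated difference of -1.56 (limma adjusted p = 0.442) and -2.74 with LPS (limma adjusted p = 0.00982).

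Chemokine genes were called 2 times, as higher, against 0.301% of all genes: Ccl3 among 12 CC genes and Cxcl2 among 13 CXC genes. Ccl7, a relative of Ccl2, had a difference of -2.56 (limma adjusted p = 0.0694). Cxcl9, which draws T cells and is induced by interferon, read 193, 753 and 102 with LPS in wild type and 3171, 4801 and 5244 in knockout, and its difference of 3.71 just missed the threshold (SE 0.76, limma adjusted p = 0.0530). Among 27 cytokine and growth factor genes, Csf2 and Il12b were called lower and 0 higher, with 20 raised by LPS in wild type (9.53% of all genes) and 22 in knockout (21.9%). The median difference was -0.07, and 0.02 after centring on the 75th percentile. Il6 (-0.07, 95% interval -1.11 to 0.97), Il23a (-0.08, interval -0.95 to 0.80), Tnf (0.36, interval -0.57 to 1.29) and Il1b (1.03, interval -0.27 to 2.34), named for their roles, were not called and had wide intervals. Knockout replicate 2 stood apart at several of them, for instance at Il1b, with 5483, 1239 and 5141 on the untreated knockout arrays.

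Of 10 IκB and Rel genes of the core pathway 0 were called in limma (0.747% of all genes). An unadjusted p under 0.05 was found for 3 (13.1% of all genes). LPS raised 9 in each genotype, against 9.53% of all genes in wild type and 21.9% in knockout. For 6 the interval lay inside 1.5-fold (70.2% of all genes). Nfkbia (0.11), Rela (0.15) and Relb (0.00) were among those inside. Of 21 Toll-like receptor signalling genes 0 were called in limma, with a median of 0.07. An unadjusted p under 0.05 was found for 8 (13.1% of all genes), 3 of them lower and 5 higher. The largest differences in this list were Tlr3 (1.76), Tlr7 (1.04) and Ticam2 (-0.99). Of 18 feedback inhibitors, Irak3 was called lower and 0 higher, while Tnip1 (0.02), Traf1 (0.09) and Tnfaip3 (-0.21) were not called.

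Interferon-driven lists could not be resolved by these arrays. Of 25 antiviral interferon-stimulated genes 0 were called in limma and 1 had an unadjusted p under 0.05 (13.1% of all genes). None had an interval inside 1.5-fold (70.2% of all genes). LPS raised 21 in wild type (9.53% of all genes) and 23 in knockout (21.9%). Ifit2 shows the spread, with 621, 2604 and 82.3 in LPS-treated wild type, 4962, 5768 and 7964 in LPS-treated knockout, and 95.7, 61.4 and 520 in untreated knockout. The list's median difference of 0.15 became -0.25 without wild-type LPS replicate 3 and 0.65 without knockout untreated replicate 3. All 7 measured GBP and IRG GTPase genes, which act against intracellular microbes, had positive differences from 0.64 to 2.29, with a median of 1.16, 0 called in limma and 1 at an unadjusted p under 0.05. That median was 0.71 without wild-type LPS replicate 3 and 1.73 without knockout untreated replicate 3. In LPS-treated wild type the mean log2 levels of these GTPase genes were 10.08, 11.34 and 8.75, so replicate 2 was also above replicate 1. List medians without wild-type LPS replicate 2 are not given. Of 15 antigen presentation genes 0 were called in limma (2 at an unadjusted p under 0.05), at a median of 0.24.

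The metabolic lists held no called gene in the reported fit. All 18 sterol synthesis genes had a negative difference (median -0.49, from -1.08 to -0.15). In limma 0 were called and 13 had an unadjusted p under 0.05, against 13.1% of all genes, and LPS lowered 5 in wild type (18.5% of all genes) and 13 in knockout (23.8%). All 18 stayed below zero after centring on the 75th percentile and after quantile normalization. Without wild-type LPS replicate 3 and knockout untreated replicate 3 the median was -0.41 and 17 were below zero. Sqle, which makes squalene epoxide, read 945, 1029 and 1170 untreated and 742, 637 and 1120 with LPS in wild type, and 845, 1177 and 1009 untreated and 396, 330 and 416 with LPS in knockout. Its groups overlapped untreated and were apart with LPS (difference -1.03, limma adjusted p = 0.119). Mvd (-0.87) and Lss (-0.82) were similar in size and not called. Of 18 glycolysis and hypoxia genes 15 were below zero with a median of -0.23, 0 were called in limma and 4 had an unadjusted p under 0.05, with Pfkfb3, which makes an activator of glycolysis, at -2.02 (limma adjusted p = 0.125). Of 20 lysosome and V-ATPase genes 0 were called in limma and 2 had an unadjusted p under 0.05. An interval inside 1.5-fold was found for 14, near the share of 70.2% over all genes. LPS lowered 15 in each genotype, against 18.5% of all genes in wild type and 23.8% in knockout.

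Of the remaining lists, 21 immediate-early and stress genes had Klf4 called higher, 19 cell cycle genes Ccne1, 14 macrophage identity genes Mertk, and 16 antimicrobial and effector genes Lcn2, called lower, each as the only call. Over all genes 0.301% were called higher and 0.446% lower, so with lists of this size a single call is read as that gene alone. The medians were 0.29, 0.13, 0.07 and -0.09. Gata6, the transcription factor gene of large peritoneal macrophages, had a difference of -1.20 that was not called (limma adjusted p = 0.136).

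**Figure D4:**
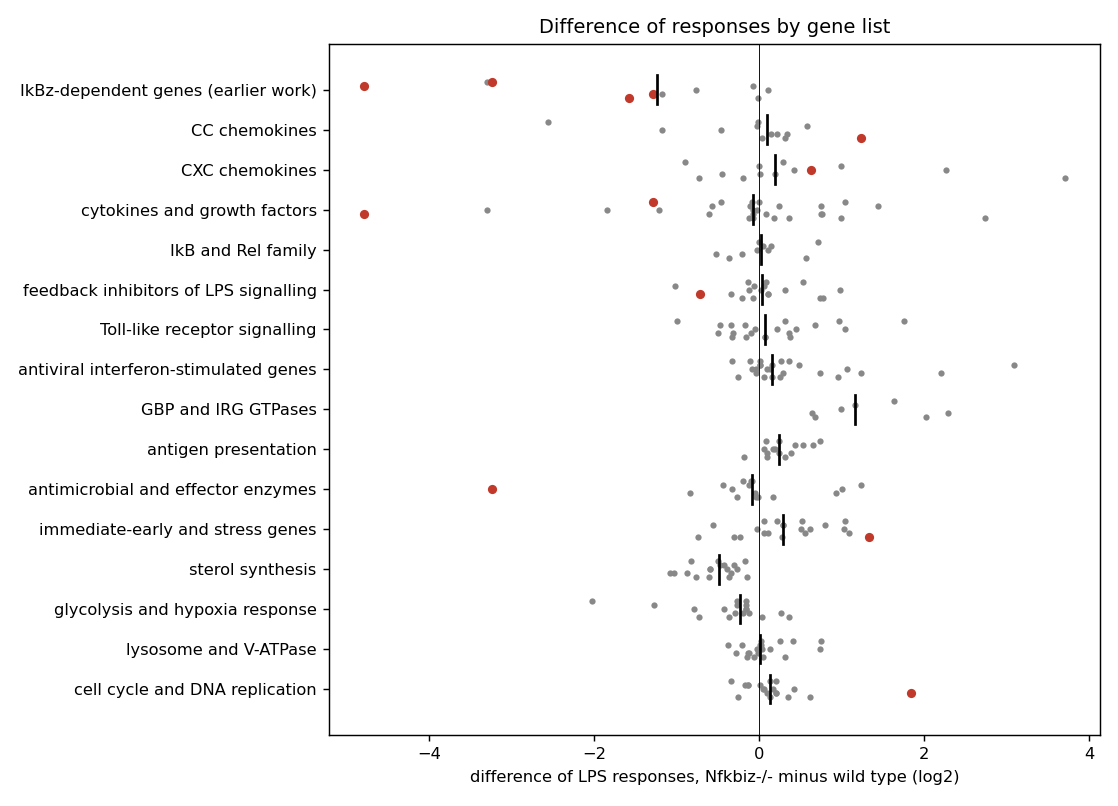
Difference of log2 LPS responses, Nfkbiz-/- minus wild type, for every measured gene of each list, 1 point per gene. The lists of cell markers, with macrophage identity among them, are not shown. Red points are called, grey points are not, and black bars are list medians. The list of genes known to need IκBζ, which includes Ccl2 of the series title, has its median at -1.24. The sterol list lies wholly below zero, and the GBP and IRG list lies wholly above it.

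How many genes were called moved with the setting. In 5 of the 23 other settings the estimated difference is the reported one by construction. In the other 18, which rescale the values or change the arrays, weights or probe sets, each of the 149 genes kept the sign of its difference. These genes were chosen on the same arrays for a difference that is large against its error. A kept sign was thus nearly fixed by the choice and adds no support.

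**Figure D5:**
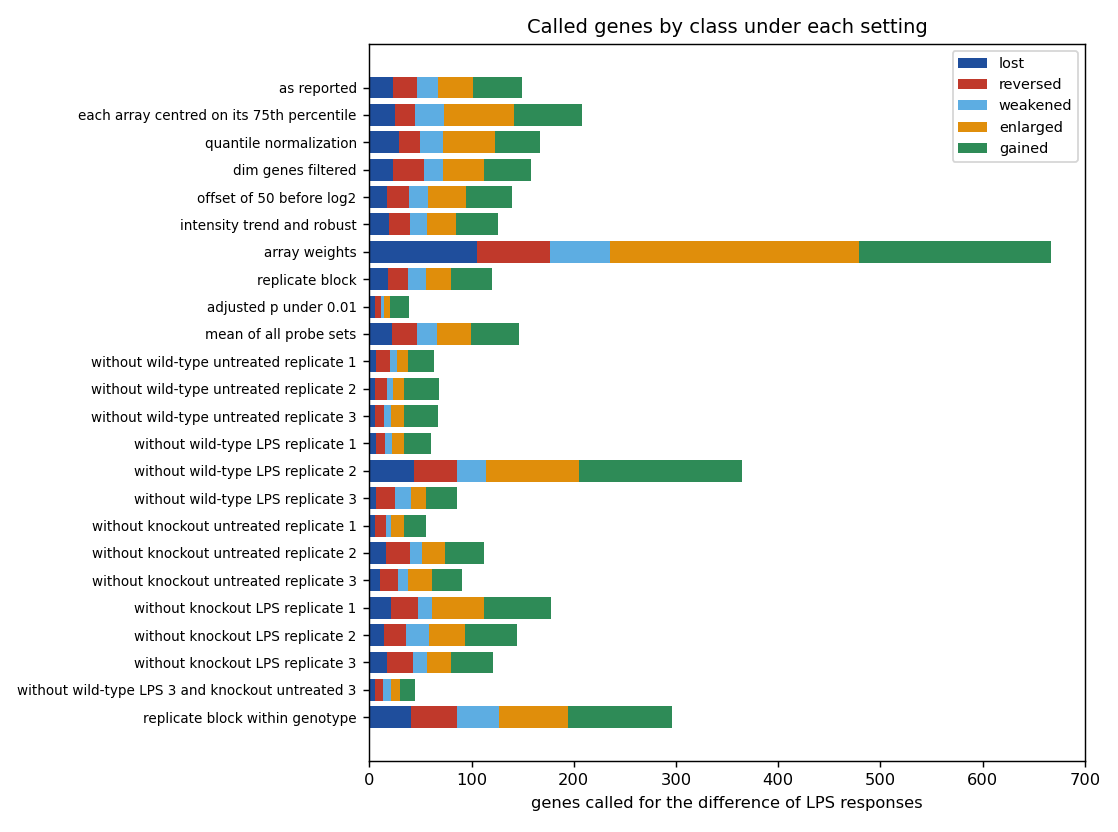
Number of genes called for a difference of LPS responses under each setting, stacked by form, with the reported fit at the top. The count ran from 39 at an adjusted p under 0.01 to 667 with array weights, and from 55 to 365 when 1 array was left out.

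Promoters of called genes were searched for the NF-κB consensus sequence on both strands of the 250 bases before the gene start, with sequences from RefSeq (GRCm38.p6). A match was found in 19 of the 121 called genes with an entry (15.7%) and in 1481 of 15614 genes tested (9.5%). By form it was 3 of 17 lost, 4 of 18 weakened, 3 of 19 reversed, 5 of 29 enlarged and 4 of 38 gained responses. A match describes letters in this window and says nothing of binding. The promoters below show a match in a weakened response (Tpbg, chr9:85842602-85842851, plus strand), a gained fall (Sh3bp5, chr14:31417678-31417927, minus strand) and a response enlarged from a lower start (Cxcl2, chr5:90903649-90903898, plus strand), each 5′ to 3′ with the match in capitals, which in Cxcl2 is a pair of overlapping matches.
Tpbg: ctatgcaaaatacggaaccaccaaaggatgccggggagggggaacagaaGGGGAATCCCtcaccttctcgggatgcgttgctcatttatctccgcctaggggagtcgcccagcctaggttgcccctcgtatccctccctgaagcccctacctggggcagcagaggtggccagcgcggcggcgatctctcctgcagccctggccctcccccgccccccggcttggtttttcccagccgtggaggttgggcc
Sh3bp5: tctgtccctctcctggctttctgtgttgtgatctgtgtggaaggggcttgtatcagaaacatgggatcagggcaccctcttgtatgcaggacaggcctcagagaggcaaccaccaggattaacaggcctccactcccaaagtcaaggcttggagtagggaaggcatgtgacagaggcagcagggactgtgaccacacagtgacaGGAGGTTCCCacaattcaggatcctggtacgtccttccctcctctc
Cxcl2: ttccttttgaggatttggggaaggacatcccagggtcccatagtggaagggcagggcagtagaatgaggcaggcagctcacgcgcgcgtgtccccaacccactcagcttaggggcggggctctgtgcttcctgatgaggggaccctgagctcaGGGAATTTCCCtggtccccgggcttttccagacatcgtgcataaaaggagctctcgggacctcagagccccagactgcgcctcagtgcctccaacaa
The match began 201 bases before the gene start in Tpbg, 46 in Sh3bp5, and 97 and 96 in Cxcl2.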

How the data were processed

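Gene expression was measured on 12 Affymetrix whole-transcript arrays. Per the submitters' processing notes, the authors used RMA and Affymetrix Expression Console 1.1, whose settings are not known here. What they deposited is 1 linear intensity per probe set. Array medians were 110.4 to 118.7 and correlations within groups 0.984 to 0.994, and 0 pairs of arrays were identical. The number of arrays limits the precision.

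Of 35556 probe sets, 21789 had 1 gene symbol in the platform annotation, 1621 several and 12146 none. Where a gene had several probe sets (999 genes), the one with the highest mean was kept, which left 19938 genes. The log2 of the intensity was fitted in R 4.3.3 with limma 3.58.1 (lmFit on 4 group means, 8 residual degrees of freedom, eBayes). The planned design took the values to be log2 before they were seen. Adjustment was by Benjamini-Hochberg over all genes. On simulated data for the difference of responses, over 19938 genes, 82% of 2-fold and 98% of 4-fold differences were recovered, and 11 unchanged genes were called. The simulation drew independent normal noise with the residual spread of each gene around a flat mean. It held no LPS response and no deviation shared by the genes of an array. These rates therefore need not hold for the real arrays.

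The forms of difference, the 24 gene lists (350 of 390 entries measured) and the rule for naming genes were chosen with earlier results of these data known. The list of genes needing IκBζ comes from general knowledge of the field and includes Ccl2, the gene named in the series title. The rule names Nfkbiz and Ccl2, the 8 largest differences of each form, the 8 largest of the genes with a gap at rest, of those with another baseline and of those with equal responses, and for each list its called members (up to 6) and its 3 largest differences. Predicted genes, small RNAs, receptor genes of smell and pseudogenes were passed over. Promoter windows come from RefSeq tables of GRCm38.p6. Alternatives were array scaling, a filter on dim genes, an offset of 50, an intensity trend, array weights, replicate blocks, a threshold of 0.01, all probe sets and leaving out arrays.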

Additional observations from a re-analysis of the deposited data

Results flagged for a closer look

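The LPS response differed between genotypes by the test of the difference itself, limma's interaction term at an adjusted p under 0.05, for 149 genes. The following named genes are among them, each with its difference of log2 responses, knockout minus wild type. Among lost responses these were Lcn2 (-3.24), Gja1 (-3.03), Aldh1l2 (-1.27), Acp5 (-1.24), Isoc1 (1.07), Trpm4 (-1.05), Dtx2 (-1.05), Mitf (1.02) and Irak3 (-0.71). Among reversed responses they were Lrrc25 (-3.12), Slc11a2 (-2.44), P4ha2 (-1.85), Mylip (-1.73), Micall2 (-1.67), E2f5 (-1.44), P2ry14 (1.34), Klf4 (1.33) and Mertk (1.27). Weakened responses were those of Csf2 (-4.78), Tpbg (-2.61), Tmc3 (-2.0), Cdh6 (-1.79), Rnd1 (-1.62), Edn1 (-1.58), Rhou (-1.58), Dapp1 (1.35) and Il12b (-1.29). Enlarged responses were those of Vcam1 (2.82), Rnf225 (2.16), Bmp2 (2.05), Intu (1.95), Calcr (1.90), Rdh12 (1.77), Nt5c1a (1.63), Csrnp1 (1.49), Ccl3 (1.23) and Cxcl2 (0.63). Gained responses were those of Clic5 (2.29), Klf8 (1.95), Napepld (-1.89), Sh3bp5 (-1.85), Ccne1 (1.84), Clec4a1 (-1.71), Kbtbd7 (-1.62) and Cyria (-1.58).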

How the results depend on the processing

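The count of 149 genes depended on the setting, and the cause was not tested. Array weights gave 667 genes, 312 higher and 355 lower (105 lost, 72 reversed, 58 weakened, 244 enlarged, 188 gained, 562 with the gap under LPS, 4206 with responses equal within 1.5-fold, 615 with another baseline only). An adjusted p under 0.01, stricter by construction, gave 39, 10 higher and 29 lower (6, 5, 3, 6 and 19 by form in the same order, gap under LPS 37, equal 1655, another baseline 32). Without wild-type LPS replicate 3 and knockout untreated replicate 3 there were 45, 17 higher and 28 lower (6, 7, 8, 9 and 15 by form, gap under LPS 44, another baseline 75). Centring on the 75th percentile gave 123 higher, 69 enlarged and 7516 equal. Leaving out 1 array gave 55 (without knockout untreated replicate 1) to 365 genes (without wild-type LPS replicate 2), with 18 to 176 higher, 37 to 189 lower, 6 to 44 lost, 8 to 42 reversed, 5 to 28 weakened, 11 to 91 enlarged, 21 to 160 gained and 48 to 348 with the gap under LPS. Equal responses then numbered 1849 to 2740, and genes with another baseline only 64 to 215. Same-numbered arrays deviated together in the knockout (correlations 0.322, 0.568 and 0.459) but not in every wild-type pair (-0.07, 0.143 and 0.359), nor across genotypes (-0.255 to 0.087). With the replicate number as a replicate block, 120 genes were called, 102 of them among the 149. A replicate block within genotype, chosen after seeing the data, called 296, 134 higher and 162 lower (41 lost, 45 reversed, 41 weakened, 67 enlarged, 102 gained), 131 of them among the 149; it cannot give genotype differences, so the gap and the baseline counts were not computed. Under it Mvd, Msmo1 and Pfkfb3 of the metabolic lists were called, and Ccl7, Cxcl9 and Gata6. For 124 named genes, 2565 of 2834 alternative values kept direction and side of the threshold, 229 were no longer called, 40 became called and 0 reversed. For 602 of these values the estimate is the reported one by construction (threshold, filter, trend and blocks), and 0 of the other 2232 reversed. Those 2232 still include the mean of all probe sets, which cannot change the estimate of a gene with 1 probe set. The called genes among those named were also chosen for large differences on the same arrays, which makes a reversal unlikely beforehand. Depth is not defined for arrays: 17 of the 149 genes lay below the median mean intensity, where intensities near background understate fold changes.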
